A study of Mus musculus with 12 samples.

Results

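The 5′ fragments of the nuclear tRNAs of 12 amino acids and selenocysteine were examined in mouse liver: those of Leu, Tyr, Ser, Gln, Pro, Arg, Met, Thr, Ile, Trp, Phe and Asn, and those of the selenocysteine tRNA (SeC). A fragment belonged to this set when its sequence began at base 1 or 2 of a mature nuclear tRNA and when no tRNA it was listed under carried Gly, Glu, Val, Lys, Asp, His, Ala or Cys. This gave 1481 of 87699 distinct sequences and 8726 of 1705883 reads, or 0.511% of all reads. The tRNA-derived small RNAs of 14 to 40 nt had been sequenced from livers of male B6D2F1/Crl mice of 8 to 12 weeks, either wild type (WT) or with a CRISPR/Cas9 deletion in NSun2 (NS-KO). Mice of both genotypes were given corn oil (D0) or CCl4, a liver toxin, as a 40% solution at 2 mL per kg, and taken at day 3 after acute injury (D3) or at day 27 of repeated injections (D27). Each of the 6 groups had 2 libraries, and the labels do not say that they came from separate mice, so p-values measure the spread between these libraries only. The deletion was carried in the germline and kept by mating heterozygous mice, so it was not limited to 1 liver cell type. The tables held tRNA reads only, so liver markers and NSun2 mRNA were not analysed here.

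tRNAs are cut by ribonucleases in the anticodon loop into a 5′ and a 3′ piece, and elsewhere, as in the D loop, into shorter tRNA fragments, and their amount rises under many kinds of stress. NSUN2 is a methyltransferase that methylates cytosines in tRNAs at the junction of the variable arm and the T stem, and in Leu-CAA also in the anticodon loop before its intron is removed. Leu and Ser tRNAs, with SeC, are the class II tRNAs, which carry a long variable arm, while initiator Met tRNA starts translation and SeC tRNA reads a UGA codon.

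The sequences below were among the most read of their amino acids, while the comparisons of sums rest on all fragments. The most-read Leu fragments ended after the D loop, at base 24 or 25, and came in a pair of forms that differed at base 16, which is in capitals.
Leu-CAA-1-1 (listed under 5 Leu-CAA and Leu-CAG tRNAs): gtcaggatggccgagTggtctaagg
Leu-CAG-1-1 (listed under 2 Leu-CAG tRNAs): gtcaggatggccgagCggtctaagg
Leu-CAA-1-1 is at chr13:21172837-21172942 and Leu-CAG-1-1 at chr1:171065984-171066066, on the RefSeq tRNA genes n-TLcaa4 and n-TLcag6 (build GRCm38). The files give no strand. The first had 249 reads and the second 231.

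Ser, Tyr, Gln, Pro, SeC and initiator Met were led by the fragments below, with Tyr-GTA-3-1 leading the Tyr tRNAs other than Tyr-GTA-6-1. Anticodon bases are in capitals where the fragment reached them.
Ser-AGA-1-1: gtagtcgtggccgag
Tyr-GTA-3-1: ccttcgatagctcagc
Tyr-GTA-6-1: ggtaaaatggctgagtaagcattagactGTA
Gln-CTG-1-1: ggttccatggtgtaatggttagcactctgg
Pro-AGG-1-1: ggctcgttggtctaggggtatgattct
SeC-TCA-1-1: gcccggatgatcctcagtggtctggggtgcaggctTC
iMet-CAT-1-1: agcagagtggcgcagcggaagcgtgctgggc
The Ser-AGA-1-1 fragment had 223 reads, the Tyr-GTA-6-1 fragment 637, the Gln-CTG-1-1 fragment 129, the SeC-TCA-1-1 fragment 61, the Pro-AGG-1-1 fragment 47 and the initiator Met fragment 33. The Tyr-GTA-3-1 fragment, which had 285 reads, was short and stopped at base 16. The fragments that led the rarer amino acids were Thr-TGT-3-1 with 18 reads, Ile-AAT-1-1 with 19, Trp-CCA-1-1 with 26, Asn-GTT-3-1 with 6 and Phe-GAA-1-1 with 3.

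Leu fragments made up 31.9% of the reads (2784), Tyr 27.9% (2434) and Ser 17.8% (1549). Gln had 444 reads, Pro 411, SeC 294, Arg 292 and Met 266. Thr and Ile had 79 reads each, Trp 51, Phe 20 and Asn 19, and 4 reads were listed under tRNAs of 2 amino acids. Of the Met reads 261 came from initiator tRNA and 5 from elongator tRNA. The class II amino acids Leu and Ser held 49.7% of the reads in all. Among the anticodons with intron-carrying genes, Tyr-GTA had 834 reads outside Tyr-GTA-6-1, whose listed gene spans the 67 bases of the tRNA with no intron, Arg-TCT had 47, Leu-CAA alone 8 and Ile-TAT 1. A further 880 reads could not be assigned between Leu-CAA and Leu-CAG, which share these 5′ ends.

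Fragment length differed between the amino acids. Of the Leu reads 44.5% were 24 to 25 nt long and 31.03% were 14 to 16 nt. Ser fragments were short, with 56.0% at 14 to 16 nt. Gln fragments reached almost to the anticodon, with 77.0% at 29 to 30 nt, as were Met fragments, with 88.7% at 30 to 33 nt, and Pro fragments, with 93.7% at 27 to 33 nt. Arg and SeC each had a short and a long form: 38.7% of Arg reads were 18 to 19 nt and 50% were 33 to 35 nt, and 48.0% of SeC reads were 15 to 19 nt and 47.3% were 35 to 37 nt. In all, 23.6% of reads reached the anticodon, from 0.516% of Ser and 2.87% of Leu reads to 67.4% of Tyr reads. Of the 2063 reads that did so, 1641 were Tyr reads, and 1581 of those came from Tyr-GTA-6-1. This tRNA lies on no RefSeq tRNA gene, and whether its reads came from the mitochondrial Tyr tRNA was not tested. Sampling was thin, since 933 sequences had 1 read and the 51 sequences with at least 30 reads held 55.6% of the reads.

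**Figure D1:**
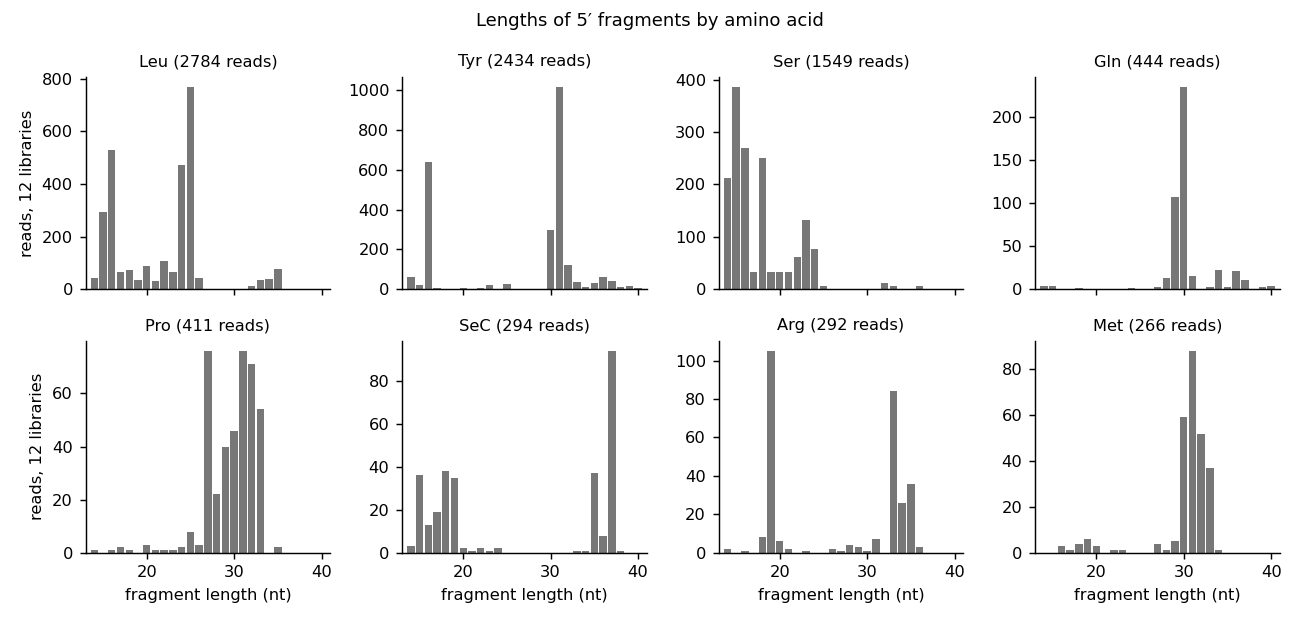
Reads of each length (nt, horizontal axis; reads summed over 12 libraries, vertical axis, on a scale of its own in each panel) for the 8 amino acids with the most reads. Leu has peaks at 14 to 16 and 24 to 25 nt, Ser lies at short lengths, Gln, Met and Pro lie near 30 nt, and Arg, SeC and Tyr have a short and a long peak. The long Tyr peak, at 30 to 31 nt, is that of Tyr-GTA-6-1, since the other Tyr tRNAs had 0% of their reads there.

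The libraries held 46937 to 275568 tRNA reads, of which 447 to 1045 were fragments of this set. By library size only, 1 read was thus worth 3.63 to 21.3 CPM (read counts scaled to a common library total). A count of 0 allowed up to 10.9 to 63.9 CPM (3 reads). These limits cover counting error only, since PCR reads without molecular identifiers are not independent molecules. The set took 0.250% to 0.888% of the reads in WT libraries and 0.472% to 1.55% in NS-KO libraries. 5′ fragments of Gly tRNAs took 31% to 61.9% of the reads in WT libraries and 9.12% to 25.7% in NS-KO libraries, and the choice of scaling therefore moved every fold change. Values below are CPM scaled by trimmed means of M values (TMM), with factors of 0.576 to 1.44. On this scale 1 read was worth 6.52 CPM in WT D0 replicate 1, against 3.755 CPM by library size only. The median log2 fold change over all 159 amino acid sums of every kind of fragment, NS-KO over WT, was 0.50 with TMM, 1.08 by library size only and 0.13 with TMM computed on isodecoder sums. Of these sums 68 were higher and 14 lower with TMM, 115 and 2 by library size only, and 46 and 26 with TMM on isodecoder sums. In whole liver, fewer cells of a type and less RNA per cell cannot be told apart.

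Across the 3 days, the 5′ fragments of Leu and Ser tRNAs, which carry leucine and serine, were higher in NS-KO than in WT, and those of the other amino acids did not pass the test. Of the 9 amino acids with enough reads to test, 2 were higher and 0 lower by limma (2 with an unadjusted p under 0.05 and 2 with voom weights), where 51.6% of all 159 sums were called. Thr, Trp, Phe and Asn were too rare to test. The median log2 fold change of the 9 was 0.23, against 0.50 for all sums. Leu fragments were at 1193, 1266, 1694, 1439, 1504 and 1822 CPM in the WT libraries (D0, D3, D27, 2 each) and at 3174, 3293, 1212, 1388, 3445 and 3849 CPM in the NS-KO libraries. The NS-KO libraries of D0 and D27 thus lay above every WT library, and those of D3 lay within the WT range. The libraries of NS-KO D0 (70818 and 46937 tRNA reads) and NS-KO D27 (46973 and 57514) were also the shallowest of all. Those of NS-KO D3 held 221446 and 127326 tRNA reads. Whether depth moved the Leu values was not tested. The log2 fold change was 0.75 (SE 0.18, limma adjusted p = 0.00101, n = 6 in each genotype). It stayed past the threshold without any 1 library and was 0.34 (adjusted p = 0.0631) with TMM on isodecoder sums.

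**Figure D2:**
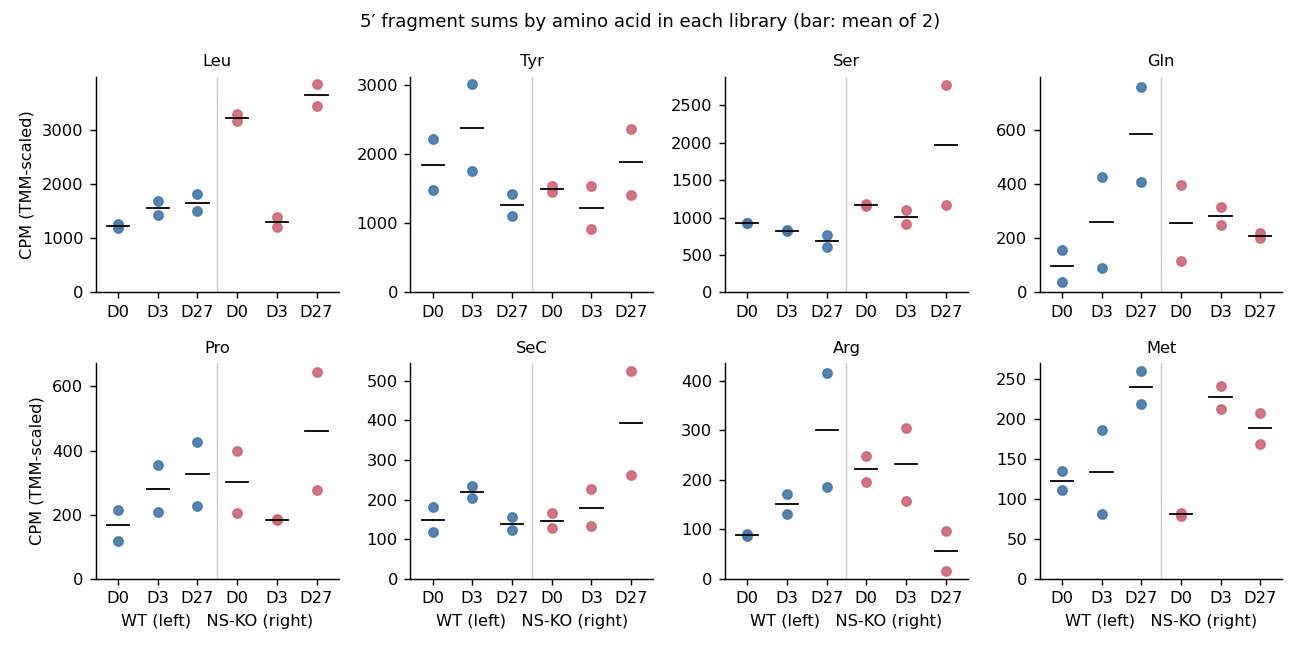
TMM-scaled CPM of the 5′ fragments of 8 amino acids in each library (points), with WT on the left and NS-KO on the right of each panel, by day, and the mean of 2 libraries as a bar. Leu stands at 3174 to 3849 CPM in the NS-KO libraries of D0 and D27 and at 1193 to 1822 CPM in the other 8 libraries.

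The Leu difference came from a pair of isodecoder sets, which pool the fragments listed under the same anticodons. Of 17 sets tested 3 were higher and 0 lower, where 42.5% of all 280 sets were called. Leu-CAG fragments were at 427 to 663 CPM in WT libraries and at 1435, 1655, 395, 399, 1353 and 1388 CPM in NS-KO libraries (log2 fold change 0.79, SE 0.19, adjusted p = 0.00206; 0.39, adjusted p = 0.0731, with TMM on isodecoder sums). Fragments shared by Leu-CAA and Leu-CAG were at 280 to 543 CPM in WT and at 1071, 1142, 265, 382, 1769 and 1486 CPM in NS-KO (log2 fold change 0.99, SE 0.21, adjusted p = 0.000825). In both sets the 4 NS-KO libraries of D0 and D27 lay above all 6 WT libraries. Fragments shared by Leu-AAG and Leu-TAG, which read other leucine codons, had a log2 fold change of 0.12 (SE 0.25, adjusted p = 0.744) that was −0.28 with TMM on isodecoder sums, with WT libraries at 245 to 415 CPM and NS-KO libraries at 200 to 487 CPM. At D0, Leu as a whole was higher by 1.38 on the log2 scale (SE 0.30, adjusted p = 0.00378), the 1 amino acid of 9 called, where 19.5% of all sums were, and by 1.32 (adjusted p = 0.0628) without WT D0 replicate 1. At the same day the set Leu-CAG was higher by 1.75 on the log2 scale (adjusted p = 0.00270) and the shared set by 1.67 (adjusted p = 0.00731), 2 of the 17 sets, where 14.6% of all sets were called. The shared set was at 1.40 (adjusted p = 0.105) without WT D0 replicate 1.

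By length, the Leu fragments that were higher in NS-KO over the 3 days were those of 20 to 27 nt, while those of 28 to 40 nt were lower. Of 16 length classes tested 4 were higher and 1 lower, where 49% of all 361 were called. Leu fragments of 20 to 27 nt were at 567, 578, 851, 664, 964 and 849 CPM in WT libraries and at 2152, 2681, 369, 557, 2953 and 2558 CPM in NS-KO libraries. At D0 this was a log2 fold change of 2.04 (SE 0.35, adjusted p = 0.000701), the only class called of the 16, where 11.4% of all classes were called and their median was 0.53. It kept its call without any 1 library, from 2.01 to 2.21. At D3 the class went the other way without a call, with both NS-KO libraries (369 and 557 CPM) below every WT library. Its log2 fold change there was −0.71 (SE 0.35, limma adjusted p = 0.143). Over the 3 days the log2 fold change of this class was 0.97 (SE 0.20, adjusted p = 0.000629), against a median of 0.57 for all classes.

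Leu fragments of 28 to 40 nt, which reach the anticodon loop, were at 163, 127, 90.6, 155, 103 and 198 CPM in WT libraries and at 68.8, 33.1, 109, 66.5, 0 and 60.9 CPM in NS-KO libraries, from 0 to 32 reads a library. The NS-KO values lay lower, with NS-KO D3 replicate 1 within the WT range. The log2 fold change was −1.31 (SE 0.37, adjusted p = 0.00570), and −0.88 (adjusted p = 0.0312) by library size only. Leu fragments of 14 to 19 nt were at 438 to 775 CPM in WT and at 492 to 1230.0 CPM in NS-KO (log2 fold change 0.36, SE 0.25, adjusted p = 0.239).

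**Figure D3:**
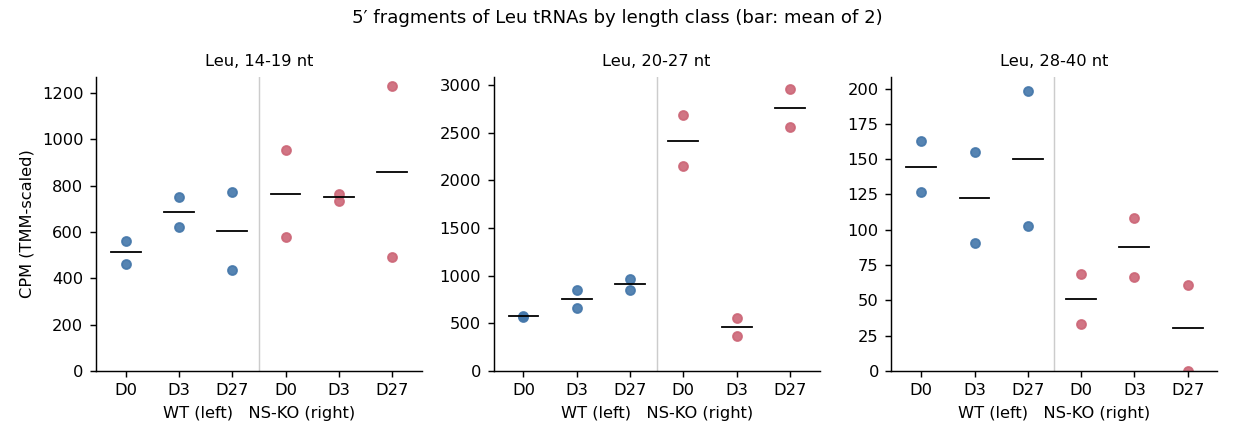
TMM-scaled CPM of Leu 5′ fragments of 14 to 19, 20 to 27 and 28 to 40 nt in each library (points; WT left, NS-KO right, by day; bar, mean of 2). The middle class stands at 2152 to 2953 CPM in the NS-KO libraries of D0 and D27 and at 369 to 964 CPM in the other 8 libraries.

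Among single fragments the same pair of forms stood out. Of 51 fragments tested 7 were higher and 1 lower, where 41.7% of all 3470 fragments were called, and all 7 were fragments of 24 or 25 nt from Leu-CAG or from Leu-CAA and Leu-CAG. The 25-nt form of Leu-CAA-1-1 printed above had 6, 10, 10, 11, 17 and 15 reads in WT libraries and 37, 33, 12, 9, 49 and 40 reads in NS-KO libraries (log2 fold change 1.59, SE 0.30, adjusted p = 0.000575). The 25-nt form of Leu-CAG-1-1 had 15, 7, 13, 9, 27 and 15 reads in WT libraries, against 33, 38, 13, 7, 26 and 28 in NS-KO libraries (log2 fold change 1.11, SE 0.31, adjusted p = 0.00883). The other 5 were the 24-nt forms and forms that differ from the listed tRNA in the last base only (G24A or G25A, counted from 1 at the 5′ end of the tRNA), with log2 fold changes of 0.86 to 1.28. Of these the 24-nt Leu-CAA-1-1 form lost its call in 10 of the 12 omissions of 1 library and in 9 alternative settings, and the Leu-CAG-1-1 form with G25A in 8 omissions and 6 settings. In all, 17.8% of the reads of the set had their mismatch at the last base. The count of 7 became 3 without WT D0 replicate 2, 11 without NS-KO D0 replicate 2 and 13 without NS-KO D27 replicate 1. The lower fragment was the 14-nt start of Ser-GCT-1-1 with 33 reads in all (log2 fold change −0.92, SE 0.35, adjusted p = 0.0410), a call lost by library size only and in 5 omissions of 1 library, while in another 5 it fell below the minimum of reads.

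As a share within Leu, which needs no scaling between libraries, fragments of 24 to 25 nt from Leu-CAG and from Leu-CAA and Leu-CAG took 31.7%, 26.3%, 31.6%, 27.2%, 44.1% and 30.3% of the Leu reads in the WT libraries. They took 57.0% and 71.4% in NS-KO D0, 20.8% and 24.6% in NS-KO D3, and 77.7% and 55.1% in NS-KO D27. The 4 libraries of NS-KO D0 and D27 were the highest and the 2 of NS-KO D3 the lowest of the 12. These shares rest on 41 to 184 reads a library. The class is that of the single fragments called above in the same libraries, so the ranking is not separate support for those calls.

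After acute injury, the 5′ fragments of Leu fell in NS-KO livers and did not pass the test in WT livers. The NS-KO D3 libraries were also deeper than those of NS-KO D0. In WT livers 0 of the 9 amino acids were called at D3 or at D27 against D0 by limma (0 at D3 and 2 at D27 with an unadjusted p under 0.05, 0 with voom weights), and 0% of all sums were called in either comparison. In NS-KO livers at D3 against D0, 1 amino acid was higher and 1 lower, where 27.7% of all sums were called. Leu fell by 1.31 on the log2 scale (SE 0.30, adjusted p = 0.00235), from 3233 ± 83.8 to 1300.0 ± 124 CPM (SD, n = 2), while the means in WT livers were 1230.0 ± 51.4 and 1566 ± 180 CPM. Leu-CAG fell by 1.91 (adjusted p = 0.000218) and the set shared with Leu-CAA by 1.75 (adjusted p = 0.00159), and Met-CAT, nearly all of it initiator tRNA, had a log2 fold change of 1.33 (adjusted p = 0.0386), 3 of 17 sets, where 20% of all sets were called. The Met-CAT call was lost in 8 of the 12 omissions of 1 library, by library size only (0.95, adjusted p = 0.275) and with voom weights (adjusted p = 0.0804). Leu fragments of 20 to 27 nt fell by 2.36 (SE 0.35, adjusted p = 2.22e-05), the 1 lower class beside 1 higher one of the 16, where 26.3% of all length classes were called, and kept this call without any 1 library.

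The D3 change of Leu differed between the genotypes. For Leu as a whole the change in NS-KO minus that in WT was −1.65 (SE 0.43, adjusted p = 0.0112), the 1 amino acid of 9 called, where 13.2% of all sums were. Without WT D0 replicate 1 it was −1.62 (adjusted p = 0.0709) and without NS-KO D0 replicate 1 it was −1.54 (adjusted p = 0.0637). It was −2.16 (adjusted p = 0.00418) for Leu-CAG and −2.20 (adjusted p = 0.00770) for the set shared with Leu-CAA, 2 of 17 sets, where 9.29% of all were called, and the latter was −1.96 (adjusted p = 0.0598) without WT D0 replicate 1. For Leu fragments of 20 to 27 nt it was −2.75 (SE 0.50, adjusted p = 0.000656), the 1 class of 16 called, where 13.3% of all were, and −2.91 to −2.40 without any 1 library, always past the threshold. Of the 51 single fragments 6 were lower by this test, where 15.6% of all fragments were called, and 5 of the 6 were Leu fragments of 23 to 25 nt. The D27 change differed for 0 of the 9 amino acids by limma (2 with an unadjusted p under 0.05, 0 with voom weights), where 0% of all sums were called.

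At D27 the Leu and Ser fragments were higher in NS-KO than in WT, while at D0 and D3 the Ser differences were 0.33 (adjusted p = 0.556) and 0.28 (adjusted p = 0.639). Of the 9 amino acids 3 were higher (Leu, Ser and SeC) and 1 lower (Arg), where 25.8% of all sums were called. The mean Leu level was 1663 ± 225 CPM in WT and 3647 ± 285 CPM (SD, n = 2) in NS-KO livers (log2 fold change 1.13, SE 0.30, adjusted p = 0.0112), and its class of 20 to 27 nt had a log2 fold change of 1.59 (SE 0.35, adjusted p = 0.00636), 1 of 3 classes higher and 3 lower of the 16, where 22.2% of all classes were called. Of 17 isodecoder sets 4 were higher and 1 lower, where 22.5% of all were called, among them Leu-CAA with Leu-CAG at 1.82 (SE 0.36, adjusted p = 0.00611), which kept its call without any 1 library. The call for Leu as a whole was lost without WT D27 replicate 1 (0.93, adjusted p = 0.102), WT D27 replicate 2 (1.24, adjusted p = 0.0854) or NS-KO D27 replicate 2 (1.10, adjusted p = 0.0981), and the call for the class of 20 to 27 nt without WT D27 replicate 2 (1.47, adjusted p = 0.0715).

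Ser fragments were at 926, 926, 815, 831, 772 and 614 CPM in the WT libraries and at 1160, 1175, 1095, 914, 1169 and 2765 CPM in the NS-KO libraries (log2 fold change 0.66, SE 0.22, adjusted p = 0.0138). NS-KO D27 replicate 2 stood far above the rest, and without it the log2 fold change was 0.49 (adjusted p = 0.0649). The call was also lost with the total without Gly fragments as the scale (0.44, adjusted p = 0.137) and with perfect matches only (0.32, adjusted p = 0.240). The set shared by Ser-AGA and Ser-TGA, which read UCN codons, carried the difference, at 626, 665, 571, 614, 561 and 359 CPM in WT and 894, 894, 834, 673, 1030 and 2509 CPM in NS-KO (log2 fold change 0.87, SE 0.23, adjusted p = 0.00553), and under TMM every NS-KO library lay above every WT library. In CPM by library size only, WT D3 replicate 1 (773) lay above NS-KO D3 replicate 2 (636). The call was lost with TMM on isodecoder sums (0.46, adjusted p = 0.0731), with perfect matches only (0.55, adjusted p = 0.0759) and with TMM on all sequences with a CPM of 20 (0.61, adjusted p = 0.0849). Ser-GCT, which reads AGC and AGU codons, had a log2 fold change of −0.15 (SE 0.30, adjusted p = 0.731) that was 0.41 by library size only. By length the Ser fragments of 20 to 27 nt (0.91, adjusted p = 0.0235) and of 14 to 19 nt (0.55, adjusted p = 0.0443) were both among the 4 classes called higher. Both calls were lost without NS-KO D27 replicate 2, at 0.68 (adjusted p = 0.0940) and 0.41 (adjusted p = 0.131), and with TMM on all sequences with a CPM of 20. The first was also lost without WT D0 replicate 1 or WT D27 replicate 2, and the second without any 1 of the 6 WT libraries. At D27 alone the Ser difference was 1.37 (adjusted p = 0.0116), and 0.80 (adjusted p = 0.233) without that library and 1.18 (adjusted p = 0.117) without WT D27 replicate 2.

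The remaining amino acids did not pass the test over days, with log2 fold changes of −0.23 for Tyr, −0.21 for Arg, −0.02 for Met, 0.12 for Gln, 0.23 for Pro, 0.30 for Ile and 0.34 for SeC (SE 0.22 to 0.37). By library size only Tyr, Arg and Met turned to 0.38, 0.31 and 0.54, and with TMM on isodecoder sums Gln, Pro and SeC turned to −0.27, −0.16 and −0.046, while Tyr was called lower (−0.64, adjusted p = 0.00939). SeC was at 117 to 236 CPM in WT and at 128 to 226 CPM in NS-KO at D0 and D3, and at 262 and 524 CPM in NS-KO D27. At D27 its log2 fold change was 1.33 (SE 0.49, adjusted p = 0.0499), a call lost without either WT D0 library, WT D3 replicate 2, either WT D27 library or NS-KO D27 replicate 2, with 0.90 (adjusted p = 0.355) without the last. Its short fragments of 14 to 19 nt were called higher over days (0.85, SE 0.31, adjusted p = 0.0265), and were at 0.62 (adjusted p = 0.149) with TMM on all sequences with a CPM of 20. This call was also lost without either WT D0 library, WT D3 replicate 1, WT D27 replicate 1 or NS-KO D27 replicate 2.

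Tyr fragments were at 1474, 2216, 3007, 1755, 1429 and 1109 CPM in WT and at 1533, 1456, 912, 1537, 1415 and 2363 CPM in NS-KO. At D3 they were lower in NS-KO by the test (log2 fold change −0.95, SE 0.37, adjusted p = 0.0472), the 1 amino acid of 9 called, where 39% of all sums were. This call was lost without WT D3 replicate 1 (−0.57, adjusted p = 0.350) and without NS-KO D3 replicate 1 (−0.46, adjusted p = 0.409), without NS-KO D3 replicate 2, either NS-KO D0 library or NS-KO D27 replicate 1, and by library size only (−1.05, adjusted p = 0.152). Gln fragments differed widely between libraries of 1 group, at 39.1, 158, 90.6, 428, 759 and 409 CPM in WT and 118, 397, 248, 316, 200 and 219 CPM in NS-KO. In WT livers the log2 change of Gln from D0 to D27 was 2.55 (SE 0.65, adjusted p = 0.0831). Pro fragments were at 119 to 428 CPM in WT and 183 to 646 CPM in NS-KO. Met fragments were at 78.6 and 82.7 CPM in NS-KO D0 and at 213 and 241 CPM in NS-KO D3 (log2 fold change 1.33, SE 0.49, adjusted p = 0.0462), a call that was lost in 9 of the 12 omissions of 1 library, all but those of the WT D3 libraries and NS-KO D27 replicate 1. It was also lost by library size only (0.95, adjusted p = 0.286) and with voom weights (adjusted p = 0.0916). The Met fragments of 28 to 40 nt behind it rested on 8 and 1 reads in NS-KO D0 and 45 and 28 reads in NS-KO D3.

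**Figure D4:**
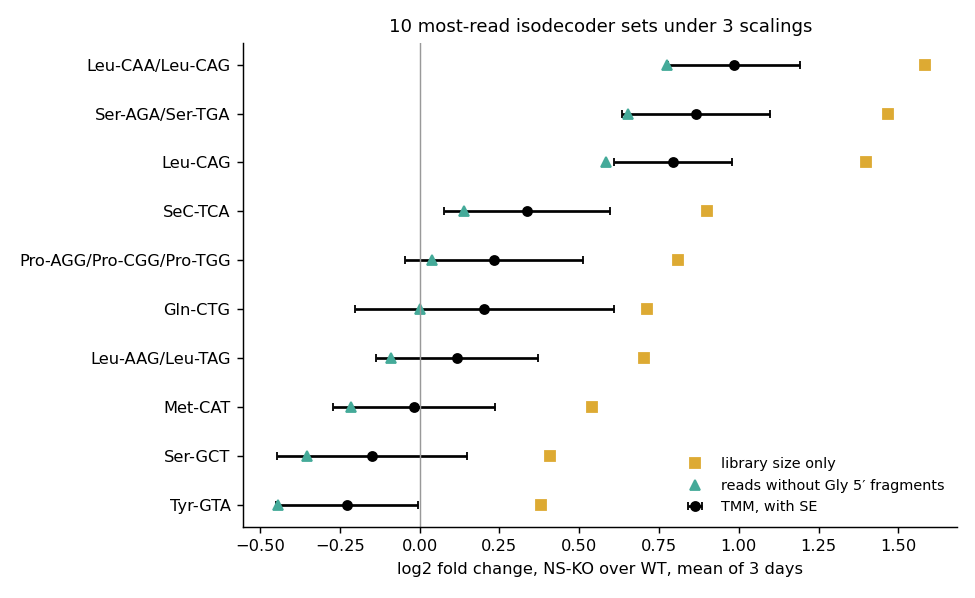
Log2 fold change of NS-KO over WT, the mean of 3 days, for the 10 isodecoder sets with the most reads, under TMM (black, with SE from limma), the total reads without Gly 5′ fragments (green) and library size only (yellow). The sets of Leu-CAA with Leu-CAG, Ser-AGA with Ser-TGA, and Leu-CAG lie highest under each scaling, and Tyr-GTA, Ser-GCT and Met-CAT lie below 0 under TMM and above it by library size only.

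The share of 5′ fragments among all mature tRNA reads of an amino acid was compared as a measure that needs no scaling. Among the 21 amino acids tested 0% were called after adjustment, and of the 13 in this set 0 were called by the exact permutation test of genotype within days (two-sided, 216 arrangements). An unadjusted p under 0.05 was found for 3 of these 13 and for 5 of all 21, a like share. With so few arrangements, an amino acid at the smallest possible p could pass the adjustment only when several others shared that p. The absence of calls therefore does not show that the shares were equal. For Leu the 6 WT libraries had a mean share of 12.0 ± 3.796% (SD, from 8.28% to 18.5%) and the 6 NS-KO libraries one of 21.3 ± 5.90% (from 14.4% to 30.6%), a difference of 9.31 percentage points (exact permutation p = 0.009259, the smallest the design allows, adjusted p = 0.0972). Trp shares did not overlap, at 3.401% to 5.93% in WT and 0.658% to 3.13% in NS-KO (exact permutation p = 0.009259, adjusted p = 0.0972), but rest on 51 5′ reads. Ser had mean shares of 34.5 ± 3.14% (WT) and 44.2 ± 7.56% (NS-KO; exact permutation p = 0.02778, adjusted p = 0.1167).

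A single base separated groups of libraries in Arg. Arg-CCG-3-1 lies at chr11:107012866-107012938, on the RefSeq tRNA gene n-TRccg1, and its fragments were read with and without a change at base 9 (G9A, counted from 1 at the 5′ end of the tRNA). The most-read forms are given with base 9 in capitals.
Arg-CCG-3-1, as listed: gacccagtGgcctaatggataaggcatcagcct
Arg-CCG-3-1, with G9A: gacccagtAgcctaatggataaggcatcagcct
Of the reads that covered base 9, those with G9A were 0 of 5, 0 of 6, 0 of 5 and 0 of 11 in the WT libraries of D0 and D3, and 15 of 22 and 45 of 59 in those of WT D27. They were 7 of 10 and 6 of 8 in NS-KO D0, 58 of 66 and 15 of 17 in NS-KO D3, and 0 of 1 and 0 of 5 in NS-KO D27. G9A reads were thus found in both libraries of 3 groups and in no library of the other 3. Libraries were pooled by groups alike in G9A, with 95% Wilson intervals. The share was 74.1% in WT D27 (63.6% to 82.4%) and 85.1% in NS-KO D0 and D3 (76.9% to 90.8%). Of the 86 G9A reads of the latter pool, 58 came from NS-KO D3 replicate 1. The share was 0 of 27 in WT D0 and D3 (up to 12.5%) and 0 of 6 in NS-KO D27 (up to 39.0%). These intervals take reads as independent and do not measure the spread between libraries.

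Reads without G9A numbered 5, 6, 5, 11, 7 and 14 in WT libraries and 3, 2, 8, 2, 1 and 5 in NS-KO libraries, so the differences of the Arg-CCG sum between groups lay in the G9A reads. The sum was higher in NS-KO than in WT at D3 (log2 fold change 1.61, SE 0.56, adjusted p = 0.0379, the 1 set of 17 called, where 27.9% of all sets were) and lower at D27 (−2.36, SE 0.56, adjusted p = 0.0102). The first call was lost without WT D3 replicate 1 (1.36, adjusted p = 0.182), NS-KO D3 replicate 1 (1.22, adjusted p = 0.2002), without either WT D0 library or WT D3 replicate 2, and by library size only (1.55, adjusted p = 0.0886). The second was lost without WT D27 replicate 2 (−1.77, adjusted p = 0.125) or NS-KO D27 replicate 1 (−1.52, adjusted p = 0.0705). Arg as a whole was lower in NS-KO than in WT at D27 (−2.31, SE 0.58, adjusted p = 0.00830), a call lost without the same 2 libraries (−1.76, adjusted p = 0.117 and −1.17, adjusted p = 0.145). In NS-KO livers it was lower at D27 than at D0 (−1.99, SE 0.58, adjusted p = 0.0428), the 1 amino acid of 9 called, where 5.66% of all sums were, with 1 and 8 Arg reads in the NS-KO D27 libraries. It was −0.97 (adjusted p = 0.370) without NS-KO D27 replicate 1. The call was also lost without WT D0 replicate 1, WT D3 replicate 2, either NS-KO D0 library or NS-KO D3 replicate 2, by library size only (−2.10, adjusted p = 0.0527) and with voom weights (adjusted p = 0.275). The D27 change of the 19-nt fragment with G9A differed between the genotypes, the 1 of 51 fragments called, where 0.173% of all fragments were. Reads of Arg-CCG-3-1 outside its 5′ end numbered 100 to 405 in each library, so the tRNA was read in all 12. The origin of the change was not tested.

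**Figure D5:**
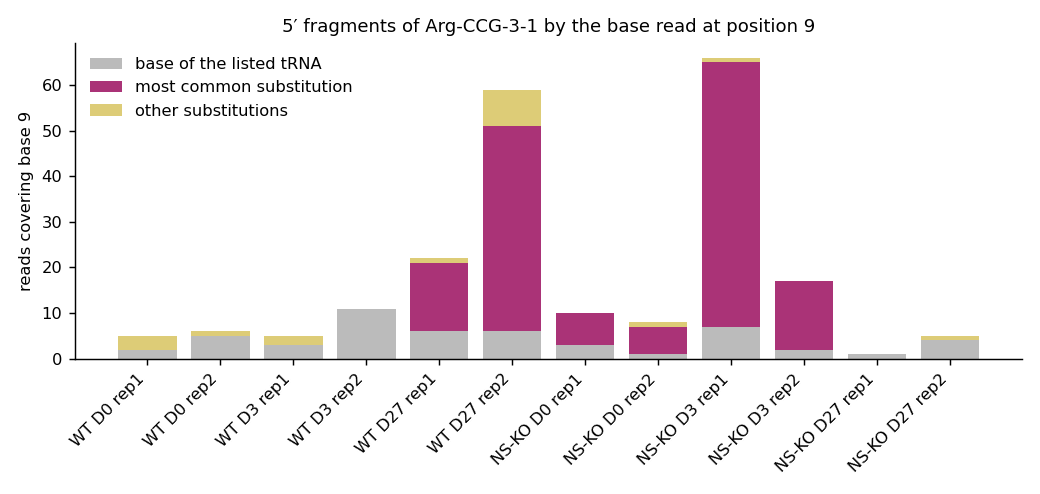
Reads of Arg-CCG-3-1 5′ fragments that cover base 9 in each library (bars), by the base read there: that of the listed tRNA (grey), the most common substitution, G9A (purple), and the others (yellow). G9A is found in the libraries of WT D27, NS-KO D0 and NS-KO D3 and in none of the other 6.

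Substitutions were counted without the last base of each read, where mismatches were common. Of 492 tRNA positions covered by at least 50 reads in this way, 4 had a substitution in 10% or more of the reads, against a median of 0.201%. Arg-CCG base 9 was the highest. At base 9 of Tyr-GTA-6-1, 370 of 1600 reads were substituted (23.1%), with 14.3% to 27.6% in each library and all other 3 bases read. At base 9 of Met-CAT, 52 of 266 reads were substituted (19.5%). Base 6 of Ser-GCT was read with G6A in 17.7% of 300 reads, from 5.88% to 29.4% in WT libraries and from 0% to 35.3% in NS-KO libraries, which overlap. The forms are given with base 6 in capitals.
Ser-GCT-1-1, as listed: gacgaGgtggccgagt
Ser-GCT-1-1, with G6A: gacgaAgtggccgagt

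Tyr fragments fell into 2 kinds by the tRNA they came from. Tyr-GTA-6-1 gave 1600 of the 2434 Tyr reads (65.7%), of which 81.9% were 30 to 31 nt long and ended in the anticodon, as in the sequence above. The other Tyr tRNAs gave 834 reads, of which 85.6% were 14 to 19 nt long. Tyr-GTA-6-1 is listed at chr2:22589649-22589715, where RefSeq has no tRNA gene, while 87 of the 97 tRNAs of this set lie exactly on one. Its 67 bases equal in number those of the mitochondrial Tyr tRNA gene TrnY, and the 3′ flank of its listed precursor holds, after 2 bases, 38 bases of the start of the mitochondrial Cys tRNA, whose gene ends 2 bases from TrnY in RefSeq. The files list 21 mitochondrial tRNAs with none for Tyr, where RefSeq has 22 genes. Whether these reads came from the mitochondrial tRNA was not tested. Without Tyr-GTA-6-1, the log2 fold change of Tyr over days was 0.34 (adjusted p = 0.250), against −0.23 for all Tyr.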

How the data were processed

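The authors' processing notes name FastQC, cutadapt and Bowtie, whose versions are not given in the sources used here. RNA was pretreated to remove blocking ends and methyl groups, size-selected for inserts of 14 to 40 nt and sequenced, and reads were aligned to mature and precursor tRNAs with 1 mismatch allowed. The authors deposited 1 text file per library in which each tRNA is a block of aligned sequences with their read counts. A sequence was counted once per library here, and all 12 count columns were used. The members and lists were chosen with earlier results of these data known.

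Counts were summed by amino acid, isodecoder set and length class over all kinds of tRNA fragment. Sums that reached, in 2 libraries, the CPM that 10 reads give at the median depth were tested. The deposited counts were converted to log2 CPM with a prior count of 2 and tested with limma 3.58.1 in R 4.3.3, with 1 mean per group, variance trend by abundance and Benjamini-Hochberg adjustment over the whole table at 0.05. The authors used edgeR, which was not run here because the block files were not taken as a plain count table. On simulated data with equal true factors, in which some sequences were changed between the genotypes, TMM factors from all sequences ran from 0.796 to 1.40. Factors were therefore taken from the 416 sequences with a mean CPM of at least 200 (0.928 to 1.03 on simulated data, trims of 30% and 5%). For single sequences a minimum of 30 reads was set beside a CPM of 20 in 1 library, since fewer reads gave false calls on simulated data. Both departed from the planned settings, which are among the alternatives. The limma comparison over days was run on simulated sums, without TMM, and on simulated single sequences. In its final form it held only single sequences with at least 30 simulated reads, so it does not cover rarer ones. Comparisons at single days and of changes between days were not checked in this way. Shares of 5′ ends needed 10 mature reads in every library and were compared with Python 3.11.15 and scipy 1.17.1; numpy 2.4.6, pandas 2.3.3 and matplotlib 3.10.9 were also used.

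Named are the amino acids with at least 10 reads, the 10 isodecoder sets with the most reads or those past the threshold over days, and the most-read sequences. Sequences behind a substitution or a called single fragment, and sets called at a single day, were added after their values were seen. Lists by role were class II tRNAs, tRNAs with intron genes, initiator Met and the rest. Coordinates are those of the files, which match RefSeq GRCm38; sequences are those of the files.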

Additional observations from a re-analysis of the deposited data

Results flagged for a closer look

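The changes from D0 were set against each other between the genotypes, and the results past the adjusted threshold of limma follow as NS-KO minus WT on the log2 scale. At D3 the difference was −1.65 for Leu (adjusted p = 0.0112), −2.20 for Leu-CAA with Leu-CAG (adjusted p = 0.00770), −2.16 for Leu-CAG (adjusted p = 0.00418) and −2.75 for Leu fragments of 20 to 27 nt (adjusted p = 0.000656). Single fragments of the Leu pair had differences of −2.95 (25 nt, Leu-CAA-1-1, adjusted p = 0.00821), −2.83 (24 nt, Leu-CAA-1-1, adjusted p = 0.0240), −2.80 (25 nt, Leu-CAG-1-1, adjusted p = 0.0167), −2.84 (25 nt, Leu-CAG-1-1 with G25A, adjusted p = 0.0250) and −2.44 (23 nt, Leu-CAG-1-1, adjusted p = 0.0470). A 14-nt Tyr fragment, ccttcgatagctct, had −3.09 (adjusted p = 0.0191). At D27 the 19-nt Arg-CCG-3-1 fragment with G9A had −4.19 (adjusted p = 0.0205), a size that depends on the prior count, since it had 0 reads in WT D0 and in NS-KO D27. No group had 4 libraries, so no library was examined as an outlier within its group.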

How the results depend on the processing

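By library size only, 4 amino acids were higher over days, 5 at D0 and 1 at D27 against D0 in WT, 2 had a lower D3 change and 1 a lower D27 change, 0 were lower in NS-KO than in WT at D3, 0 were higher at D3 against D0 in NS-KO (1 was lower, Leu), and 0 were lower at D27 against D0 in NS-KO. In the same setting 6 isodecoder sets, 14 single fragments and 9 length classes were higher and 0 single fragments lower, and Arg (0.31), Met and Met-CAT (0.54), Tyr and Tyr-GTA (0.38) and Ser-GCT (0.41) turned to above 0. With TMM on isodecoder sums 0 amino acids were higher and 1 lower (Tyr, −0.64), 1 isodecoder set was higher and 1 lower, and 3 single fragments were higher and 4 lower, and Gln (−0.27), Pro (−0.16), SeC and SeC-TCA (−0.046), Gln-CTG (−0.17), Leu-AAG with Leu-TAG (−0.28) and the Pro set (−0.15) turned to below 0. With the total without Gly 5′ fragments 1 amino acid and 4 single fragments were higher, with Gln at −0.084 and Leu-AAG with Leu-TAG at −0.0905. With perfect matches only 1 amino acid was higher, and 3 single fragments were higher and 2 lower, with SeC and SeC-TCA at −0.060 and Leu-AAG with Leu-TAG at −0.15. Some settings were added after the data were seen: with TMM on all sequences with a CPM of 20, 1 amino acid, 3 single fragments and 1 length class were higher and 2 length classes lower, with Gln at −0.13, Pro at −0.023, the Pro set at −0.0175, Gln-CTG at −0.032 and Leu-AAG with Leu-TAG at −0.13; without the minimum of 30 reads 4 single fragments were higher and 0 lower; and Tyr without Tyr-GTA-6-1 was at 0.34. A prior count of 0.5 and a CPM of 50 in 2 libraries each left 0 single fragments lower. The cause of these changes was not tested. Leu-CAA with Leu-CAG kept its call over days in every setting run.

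Leaving out 1 library in turn gave 1 to 2 amino acids higher over days, 0 to 1 higher at D0, 0 to 1 lower at D3, 0 to 3 higher and 0 to 1 lower at D27, 0 to 1 higher at D27 against D0 in WT, 0 to 1 higher at D3 and 0 to 1 lower at D27 against D0 in NS-KO, 0 to 1 with a lower D3 change and 0 to 1 with a lower D27 change. It gave 3 to 13 single fragments higher and 0 to 2 lower, 1 to 5 length classes higher and 3 to 4 isodecoder sets higher. Values not past the threshold crossed 0: Arg from −0.49 to 0.22, Gln from −0.21 to 0.51, Met and Met-CAT from −0.18 to 0.15, Tyr and Tyr-GTA from −0.37 to 0.023, Gln-CTG from −0.13 to 0.63, Leu-AAG with Leu-TAG from −0.051 to 0.45 and Ser-GCT from −0.43 to 0.28. Omissions for single days and length classes were added after the data were seen.

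The differences between the replicates of a group correlated with those of another group at r from −0.197 to 0.442 over 15 pairs of groups. With 1 such difference per group, this does not show whether libraries with the same number shared more than the number. With the replicate number as a block, 2 amino acids and 3 isodecoder sets were higher and 6 single fragments higher and 1 lower. The count test planned as an alternative was not run. At 3.63 to 21.3 CPM a read by library size only, differences in the CPM of the rarest amino acids (Thr, Trp, Phe and Asn) could not be resolved. Their shares of 5′ fragments were compared apart from this, on few reads.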
